A study of Mus musculus with 4 samples.

Results

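The Hox clusters and the clustered protocadherins were examined for TOP2B peaks in freshly isolated thymocytes of wild-type C57BL/6 mice of 4 to 6 weeks of age, fixed in 1% formaldehyde. TOP2B ChIPseq had been performed with 2 antibodies, from Santa Cruz and from Novus Biologicals, with 1 library each, and the study takes the peaks shared by both as its TOP2B sites. The IgG and TOP2A libraries of the same cells, the other 2 of the 4 libraries of the series, were not analysed here. Members were the protein-coding genes of GENCODE M1 whose names begin with Hoxa, Hoxb, Hoxc, Hoxd, Pcdha, Pcdhb or Pcdhg. This gave 63 gene names and 64 gene models, since Hoxa3 has 2 models, of 22342 protein-coding gene models. They form 7 clusters, 4 of Hox genes and 3 of protocadherins, and every peak whose centre lay in a cluster or within 50 kb of one was taken. A total of 16 of 17754 Santa Cruz peaks and 2 of 3564 Novus peaks met this rule. The score of every peak is listed at 0, so that peaks have positions but no heights, and read depth is not in the lists. Each antibody had a single library, so that no spread between replicates could be given, and the intervals given are exact 95% intervals that cover counting error only.

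TOP2B is a type II topoisomerase, described by the study as providing most TOP2 activity in cells that are in G1 or not cycling. It passes one DNA duplex through a transient break in another, and it is known to sit near CTCF and cohesin at the anchors of chromatin loops and at active promoters. Hox genes encode homeodomain transcription factors that give cells their position along the body axis. They lie in the order in which they are used, with the low-numbered anterior genes at one end of a cluster and the high-numbered posterior genes at the other. CTCF sites between Hox genes are known to separate active from Polycomb-covered parts of a cluster. Clustered protocadherins are cadherin-like adhesion proteins that give neurons their surface identity. Each alpha and gamma transcript joins one variable first exon to shared last exons, whereas each beta gene is a single coding exon, and CTCF and cohesin link the chosen promoter to distant enhancers.

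The peaks that carried a feature of the Hox clusters were read as sequence from mm9, on the plus strand and in lower case. The Santa Cruz peak over the start of Hoxa7 was the one peak at a Hox start that also held the CTCF core motif, and the motif is in capitals on its 30 bases (chr6:52171799-52171828). It matched the reverse strand with 1 mismatch and lay 9 bp from the peak centre. Of the same peak, the 44 bases upstream of the Hoxa7 transcript are also shown, followed by the peak 600 bp upstream of Hoxa11 (chr6:52196720-52196906).
Hoxa7 motif: agccacactGCCATCTCCTGGaattttctt
Hoxa7 upstream: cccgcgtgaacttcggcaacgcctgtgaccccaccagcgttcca
Hoxa11 upstream: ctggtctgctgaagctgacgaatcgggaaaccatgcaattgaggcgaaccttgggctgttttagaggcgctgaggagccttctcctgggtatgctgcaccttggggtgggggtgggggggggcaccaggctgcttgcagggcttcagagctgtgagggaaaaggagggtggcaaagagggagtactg

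Both Novus peaks are shown because they were the only peaks of that list in the windows. One lay in an intron of Hoxd3 (chr2:74553847-74554041), the other between Hoxa13 and Evx1 (chr6:52255885-52256079). Neither held the core motif with up to 1 mismatch within 250 bp of its centre.
Hoxd3 intron, Novus: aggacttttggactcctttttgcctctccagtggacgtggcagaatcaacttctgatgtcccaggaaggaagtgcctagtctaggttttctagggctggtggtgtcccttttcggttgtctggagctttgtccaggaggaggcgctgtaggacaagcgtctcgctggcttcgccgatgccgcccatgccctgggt
Evx1 side, Novus: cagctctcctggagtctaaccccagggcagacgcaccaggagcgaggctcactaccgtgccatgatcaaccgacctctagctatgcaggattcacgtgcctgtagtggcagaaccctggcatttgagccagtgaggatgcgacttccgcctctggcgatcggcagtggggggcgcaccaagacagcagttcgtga

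A pair of Santa Cruz peaks at Evx2 flanked the posterior end of Hoxd. The peak in a coding exon of Evx2 (chr2:74495797-74495983) is set beside the peak between Evx2 and Hoxd13 (chr2:74499925-74500111), which lay 6.35 kb from the Hoxd13 start.
Evx2 exon: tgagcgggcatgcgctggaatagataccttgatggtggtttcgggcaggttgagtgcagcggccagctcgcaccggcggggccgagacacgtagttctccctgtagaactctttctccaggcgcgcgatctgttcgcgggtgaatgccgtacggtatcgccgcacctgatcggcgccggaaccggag
Evx2 to Hoxd13: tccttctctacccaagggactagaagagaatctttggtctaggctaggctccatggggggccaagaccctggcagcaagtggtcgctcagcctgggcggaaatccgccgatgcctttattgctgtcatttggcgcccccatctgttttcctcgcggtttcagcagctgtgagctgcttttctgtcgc

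A further pair of Santa Cruz peaks stood on simple repeats, whose longest perfect dinucleotide run is in capitals. The run was 32 bp long in the peak in an intron of Hoxc4 (chr15:102862135-102862321) and 33 bp long in the peak 30.5 kb beyond the Hoxd13 end of Hoxd (chr2:74475769-74475955).
Hoxc4 intron: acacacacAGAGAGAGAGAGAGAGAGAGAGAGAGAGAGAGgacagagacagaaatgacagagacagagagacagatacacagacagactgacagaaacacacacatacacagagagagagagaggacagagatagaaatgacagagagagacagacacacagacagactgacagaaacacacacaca
Hoxd outer peak: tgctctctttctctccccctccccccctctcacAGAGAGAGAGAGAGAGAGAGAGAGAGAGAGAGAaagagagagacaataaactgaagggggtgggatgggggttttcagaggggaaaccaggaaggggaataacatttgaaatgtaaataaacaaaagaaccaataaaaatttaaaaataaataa
These 2 of the 16 Santa Cruz peaks in the windows had a run of at least 20 bp (12.5%, interval 1.55% to 38.35%). That length was chosen after the sequences had been seen. Of all Santa Cruz peaks 2.04% had such a run, a share inside that interval. Neither of the 2 Novus peaks had such a run, against 0.673% of all Novus peaks. Every 75-base window of both repeat peaks occurred once in the genome.

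TOP2B peaks lay inside 5 of the 7 clusters when both lists were counted. Santa Cruz peaks numbered 4 inside Hoxa, 3 inside Pcdhb and 1 each inside Hoxc and Pcdha. None lay inside Hoxb, Hoxd or Pcdhg. The other 7 Santa Cruz peaks lay in the flanks, 3 of them next to Hoxd. Novus peaks numbered 1 inside Hoxd and 1 in the flank of Hoxa. No peak of one list overlapped a peak of the other in any window, against 27.9% of all Novus peaks and 5.65% of all Santa Cruz peaks that overlapped the other list. With 0 of 2 Novus and 0 of 16 Santa Cruz peaks, the intervals reach 84.2% and 20.6%, so that a share like that of the whole lists was within them. By the study's definition, no TOP2B site common to both antibodies was listed in these windows.

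**Figure D1:**
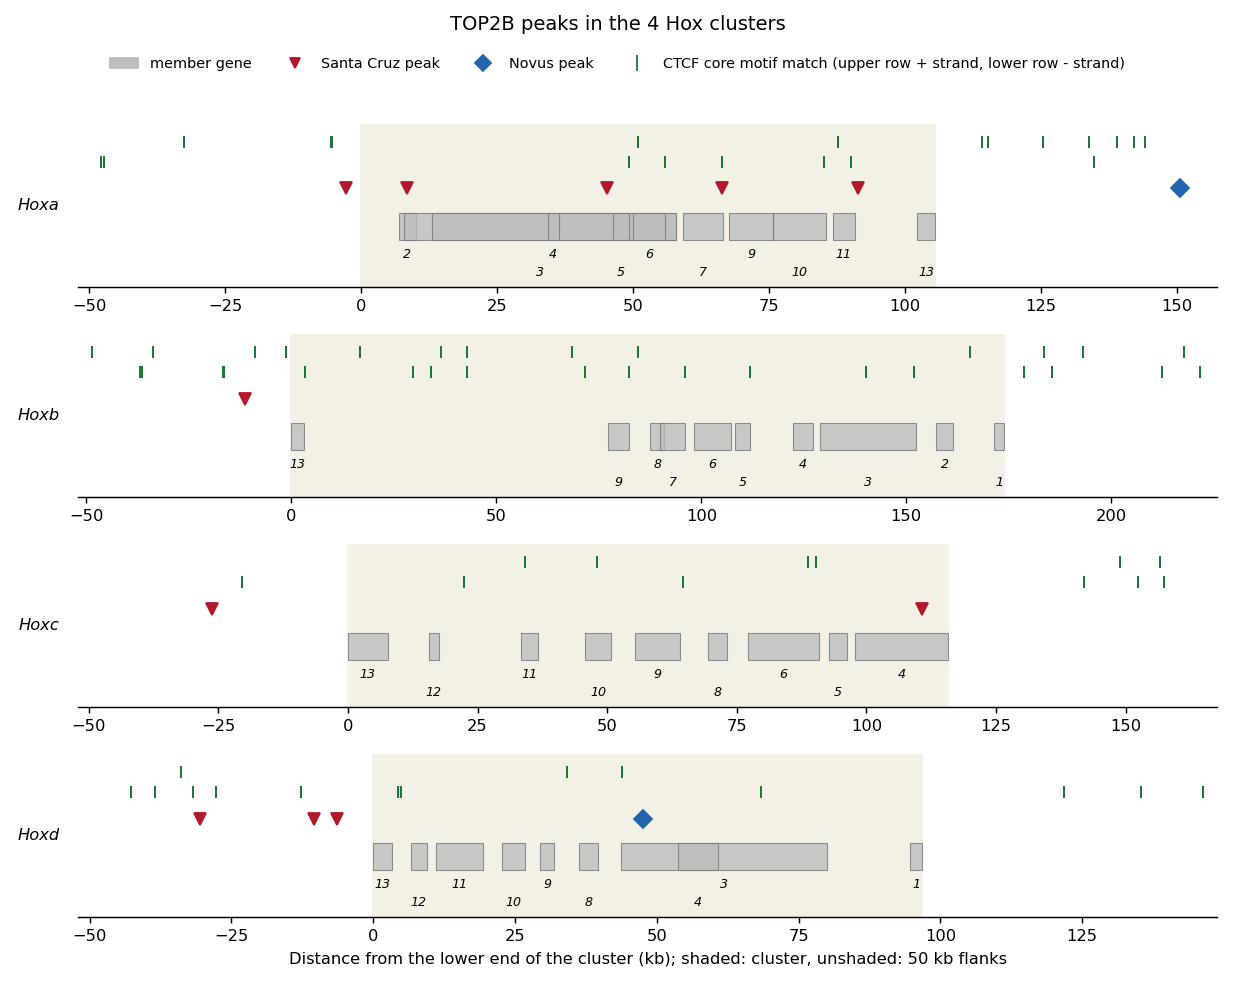
Maps of Hoxa, Hoxb, Hoxc and Hoxd, with the distance from the lower end of each cluster in kb on the x axis. Grey boxes are genes labelled by their number, with 1 member not drawn, triangles are Santa Cruz peaks, diamonds are Novus peaks and green ticks are CTCF core motif matches. Santa Cruz peaks stand inside Hoxa at 4 places, whereas Hoxb holds none in its 173.9 kb and Hoxd has its 3 Santa Cruz peaks on the side of Hoxd13.

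Hoxa, on chromosome 6 (mm9), held the most Santa Cruz peaks of the 7 clusters, 5 with its flanks. Of consecutive stretches of 100 kb along the genome, 3.08% had 4 or more Santa Cruz peaks, the number found in the 105.5 kb of Hoxa. One, at 52113727 to 52113913, lay in introns of Hoxa2 and Hoxa3, 1592 bp downstream of the Hoxa2 start. Farther in, the peak at 52150591 to 52150777 was in an untranslated exon of a Hoxa3 model and inside the long noncoding RNA gene 2700086A05Rik, 3.90 kb downstream of the Hoxa5 start. Neither of these peaks was within 1 kb of a start.

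Both peaks at starts of member genes were in the central and posterior part of Hoxa. The peak at 52171711 to 52171897 covered the Hoxa7 start itself, with its centre 49 bp downstream of it, in an untranslated exon. The peak at 52196720 to 52196906 had its centre 600 bp upstream of the Hoxa11 start and lay inside Hoxa11as, a long noncoding RNA gene annotated on this stretch. Hoxa7 is known for the patterning of the trunk and Hoxa11 for that of the limb and the uterus. Skap2, a protein-coding gene that flanks Hoxa, was 57.2 kb from a Santa Cruz peak. Of the other Hoxa genes, 9 names in 10 models, Hoxa2 was closest to a Santa Cruz peak at 1.59 kb and Hoxa13 farthest at 14.0 kb. The Novus peak lay 45.1 kb beyond Hoxa13 and 7.51 kb upstream of the start of Evx1, a homeobox gene next to the cluster. The nearest peak of the Santa Cruz list lay 59.2 kb away.

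Hoxb, on chromosome 11 from 96055630 to 96229570, was the longest stretch of Hox genes and held no peak of either list. Stretches of 100 kb without a Santa Cruz peak were common, at 61.2% of the genome, and Hoxb spans 173.9 kb. Its one Santa Cruz peak lay in the flank at 96044158 to 96044344, 11.4 kb upstream of Hoxb13. Starts of the other 9 Hoxb genes were 78.6 kb to 127.6 kb from a Santa Cruz peak, with the largest distance at Hoxb4. On the far side, the start of Skap1, which encodes an adaptor of T-cell receptor signalling and is the next protein-coding gene beyond Hoxb1, had a Santa Cruz peak 0.019 kb away. Ttll6, on the Hoxb13 side, was 48.7 kb from one. The Skap1 peak was outside the window, since Skap1 begins 96.3 kb beyond Hoxb1.

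Hoxc, on chromosome 15 from 102751534 to 102867274, had the repeat peak in Hoxc4 as its single inner peak. The centre was 2598 bp upstream of the nearest Hoxc4 start and 5.05 kb inside the anterior end of the cluster. The 110.7 kb from Hoxc13 to this peak held none. The other Santa Cruz peak was at 102725309 to 102725495, 26.1 kb upstream of Hoxc13 and between genes. The flanking genes Gm17649 and Smug1, which encodes a DNA repair glycosylase, were 25.85 kb and 7.54 kb from a Santa Cruz peak. Distances from Hoxc starts to a Santa Cruz peak ran from 2.60 kb at Hoxc4 to 65 kb at Hoxc10.

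Hoxd, on chromosome 2 from 74506367 to 74603200, differed between the lists in where its peaks lay. All 3 Santa Cruz peaks were outside, on the posterior side, at 30.5 kb, 10.5 kb and 6.35 kb from the Hoxd13 end. The middle one was in a coding exon of Evx2, the homeobox gene that adjoins Hoxd13, 1586 bp downstream of the closest Evx2 start. The inner one was 2100 bp upstream of the outer Evx2 start, a different one, between Evx2 and Hoxd13. The Novus peak lay near the middle of the cluster, 3.96 kb downstream of the outermost Hoxd3 start and 6.09 kb from the closest Hoxd4 start, on an exon of the noncoding gene 1700109F18Rik. The nearest peak of the Santa Cruz list lay 53.9 kb away. The start of Mtx2, a mitochondrial outer membrane gene and the next gene beyond Hoxd1, had a peak of each list at 0.567 kb and 0.318 kb, but these were beyond the 50 kb flank, the Santa Cruz peak at 61.2 kb from Hoxd1.

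**Figure D2:**
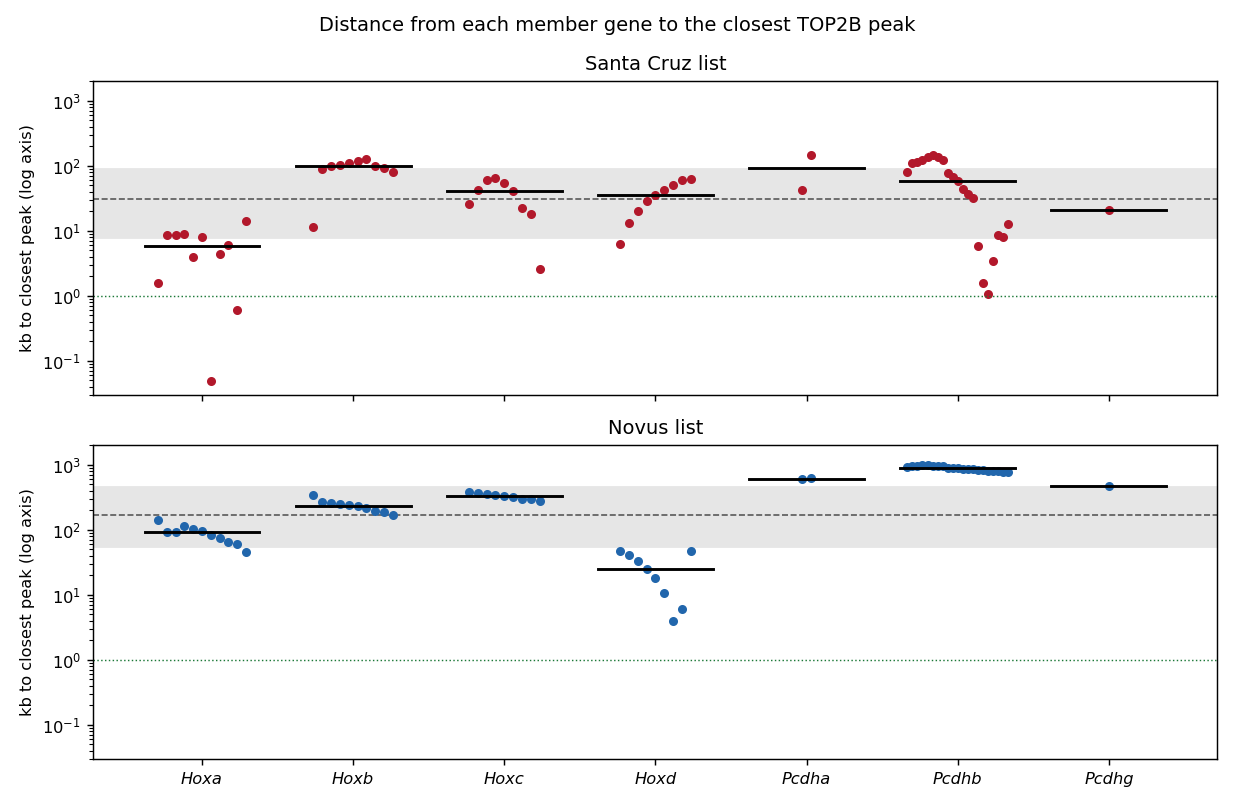
Distance from the closest start of each member gene model to the closest Santa Cruz peak (upper panel) and Novus peak (lower panel), in kb on a log axis. Each point is a gene model, with 1 member not drawn, black bars are cluster medians, the dashed line and grey band are the median and quartiles of all protein-coding genes, and the dotted line is 1 kb. Hoxa7 and Hoxa11 are the 2 points under 1 kb, and no Novus point is.

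Start by start, 2 of the 64 member gene models, Hoxa7 and Hoxa11, had a Santa Cruz peak within 1 kb (3.125%, interval 0.381% to 10.8%). Of all protein-coding genes 12.1% did, a share above that interval. The interval treats neighbouring gene models as independent and is therefore too narrow, so no difference is drawn from it. None had a Novus peak within 1 kb (interval up to 5.60%), against 5.11% of all protein-coding genes, which lies inside that interval. Hox genes alone gave 2 of 40 (5%, interval 0.611% to 16.9%) and protocadherins 0 of 24 (interval up to 14.25%), and the difference between both was not tested. The 12.1% of all protein-coding genes lay inside each of these intervals. A peak of the Santa Cruz list lay somewhere inside 8 of the 64 gene models (12.5%, interval 5.55% to 23.15%), against 25.5% of all genes. A Novus peak lay inside 1, Hoxd3 (1.56%, interval 0.03955% to 8.40%), against 7.67%. Neighbouring genes can share a peak and genes differ in length, so that the gene models are not independent, and the part of either in these shares was not tested.

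The median distance to a Santa Cruz peak was 5.73 kb in Hoxa, 35.7 kb in Hoxd, 41.2 kb in Hoxc, 57.9 kb in Pcdhb and 99.8 kb in Hoxb, against 30.6 kb over all protein-coding genes. It was 93.05 kb in Pcdha, with 2 models, and 20.53 kb in Pcdhg, with 1 model. Over Hox paralogue groups, 6 of 13 models of groups 1 to 4, 3 of 11 of groups 5 to 8 and 4 of 16 of groups 9 to 13 had a Santa Cruz peak within 10 kb. The shares were 46.15% (interval 19.2% to 74.9%), 27.3% (6.02% to 61.0%) and 25% (7.27% to 52.4%), against 28.2% of all protein-coding genes, which lay inside each interval. Outside Hoxa, only Hoxc4 and Hoxd13 had a Santa Cruz peak within 10 kb, so these shares mostly reflect the peaks of Hoxa. Hoxa3 counts as 2 models in groups 1 to 4, and a difference between groups was not tested. Within 10 kb of a Novus peak were only Hoxd3 and Hoxd4, both close to the same peak, against 8.78% of all protein-coding genes. The median distance to a Novus peak was 24.8 kb in Hoxd, 92.8 kb in Hoxa, 235.6 kb in Hoxb, 330.3 kb in Hoxc and 875 kb in Pcdhb, against 167.3 kb over all genes. It was 609.5 kb in Pcdha and 476.7 kb in Pcdhg.

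The protocadherin clusters lie side by side on chromosome 18. Pcdha spans 37089939 to 37347311, Pcdhb 37424652 to 37681073 and Pcdhg 37833989 to 38001527. The annotation gives the beta genes 1 by 1, 21 of them, but joins the alpha array into 2 gene models, Pcdha11 with 10 starts and Pcdha3, and the gamma array into Pcdhgc5 with 10 starts. The Santa Cruz list had 5 peaks in the windows of these clusters and the Novus list none. The closest Novus peak was 476.7 kb to 978.7 kb from the starts of the 24 protocadherin models.

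Of the Santa Cruz peaks, the one in Pcdha lay at the far end of the array, at 37345344 to 37345530. It was 1.87 kb inside the 3′ end, in an untranslated exon of Pcdha11, and the 255.5 kb before it, with all annotated alpha starts, held none. Pcdhb had 3 peaks near its upper end and none in the 214.4 kb before them. One lay in the coding exon of Pcdhb16 at 37638910 to 37639096, 1581 bp downstream of its start. The next lay in the coding exon of Pcdhb17 at 37645634 to 37645820, 1052 bp downstream of its start and 6.72 kb from the first. The last, at 37665303 to 37665489, lay in an exon of Pcdhb20, which GENCODE M1 annotates as a pseudogene, 7.91 kb upstream of Pcdhb21. All 3 were in bodies of beta units and none was within 1 kb of a start. Of stretches of 100 kb, 61.2% held no Santa Cruz peak. Longer stretches were not counted, so the empty parts of Pcdha and Pcdhb have no background at their lengths.

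Pcdhg held no peak in its 167.5 kb. The Santa Cruz peak in its flank, at 37813370 to 37813556, was 20.5 kb below the cluster and 2098 bp upstream of 3222401L13Rik, the next protein-coding gene. It held the core motif, on the minus strand at 37813530 to 37813541. Diap1, next to the other end of Pcdhg and the gene of a formin that builds actin filaments, had its closest Santa Cruz peak 2.86 kb from its start. The closest protein-coding neighbour below Pcdha, Gm6756, was 118.8 kb from one, and Slc25a2, between Pcdhb and Pcdhg, 15.1 kb.

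**Figure D3:**
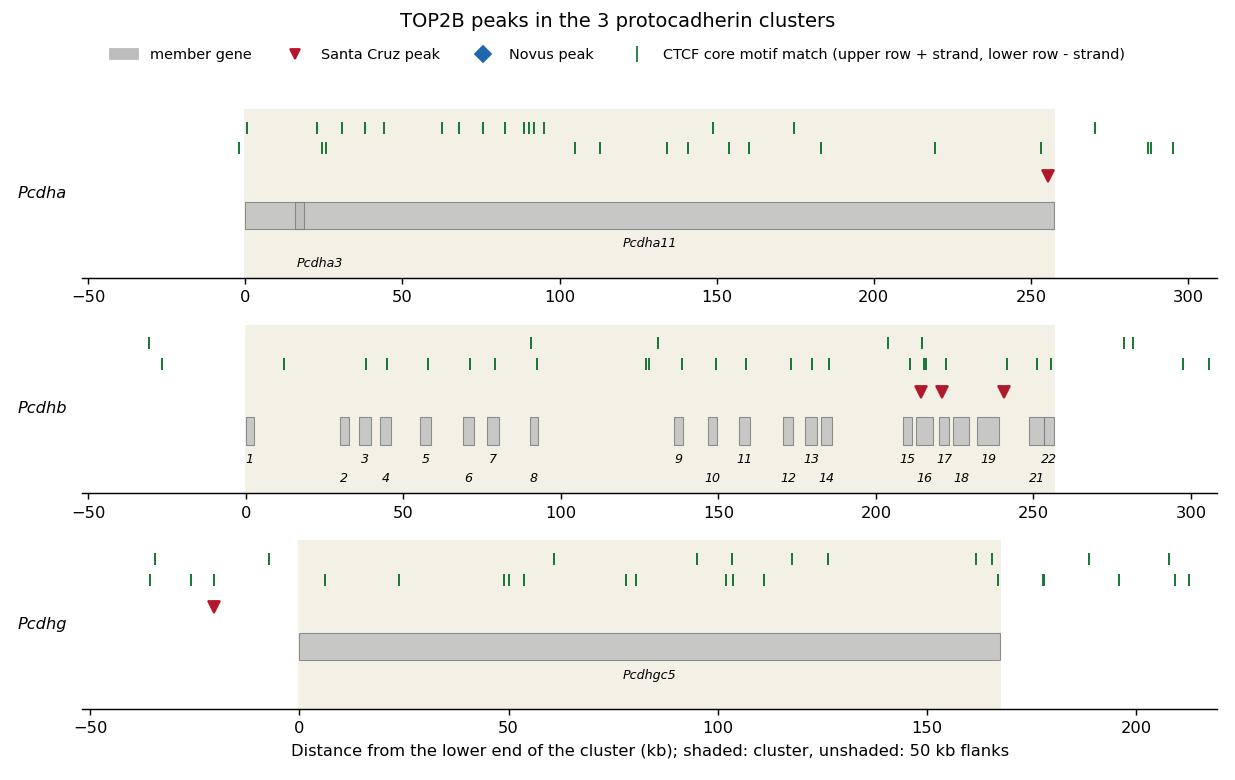
Maps of Pcdha, Pcdhb and Pcdhg, with the distance from the lower end of each cluster in kb on the x axis, drawn as for the Hox clusters. The 4 inner Santa Cruz peaks stand near the upper ends of Pcdha and Pcdhb, no Novus peak is in any of the windows, and the motif ticks of Pcdhb are mostly in the lower row, the minus strand.

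The CTCF core motif, of 12 bases and searched on both strands with up to 1 mismatch, stood in for insulator sites, since CTCF itself was not measured in the lists. Within 250 bp of the centre, 3 of the 16 Santa Cruz peaks had a match (18.75%, interval 4.05% to 45.7%), against 16.1% of the whole Santa Cruz list and 4.04% of positions spaced every 10 kb. These were the peaks at Hoxa7, at Pcdhb16 and below Pcdhg. At Pcdhb16 the match was outside the peak, 132 bp from its centre on the plus strand, and below Pcdhg it was inside, 72 bp from the centre. None of the 2 Novus peaks had a match (interval up to 84.2%), against 25.7% of the whole Novus list. Promoter peaks, within 1 kb of a protein-coding start, were 2 of the 16 Santa Cruz peaks (12.5%, against 15.2% of the list). Those with a motif and no start, called insulator sites here, were also 2 of 16 (12.5%, against 14.5%), and the other 12 had neither (75%, against 70.4%).

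Seen from the motif, 170 matches lay in the windows and 3 had a Santa Cruz peak within 250 bp (1.76%, interval 0.365% to 5.07%), against 1.44% of all matches in the genome. None had a Novus peak (interval up to 2.15%), against 0.465%. A match lay within 250 bp of 5 of the 119 member starts (4.20%, interval 1.38% to 9.53%), against 6.80% of all protein-coding starts.

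Exact matches were most frequent in the alpha and beta arrays. Pcdhb held 13 (50.7 per Mb) and Pcdha 6 (23.3 per Mb), against 4.82 per Mb in the genome, while Hoxb held 1 and Hoxa, Hoxc, Hoxd and Pcdhg none. All 13 in Pcdhb were on the strand opposite to the genes, and 12 of them stood 2259 bp to 2432 bp downstream of the preceding beta gene start, with a median of 2384 bp. The remaining match lay in Pcdhb20, a pseudogene in this annotation and so not a member, 2359 bp downstream of its start. All 6 in Pcdha were on the strand of the genes, and 3 stood 461 bp to 464 bp downstream of an annotated alpha start. Of the 25 exact matches in all windows, none had a Santa Cruz or a Novus peak within 250 bp (interval up to 13.7%), against 6.43% and 2.45% of exact matches in the genome. Many of the 25 recur at like distances from beta or alpha starts, so they are not independent. The interval treats them as independent and is therefore too narrow. The exact matches closest to the 3 Pcdhb peaks lay 0.851 kb, 1.29 kb and 0.889 kb from their centres. With up to 1 mismatch the density was 101 matches per Mb in Pcdha and in Pcdhb and 107 per Mb in Pcdhg. It was 92.0 in Hoxb, 66.35 in Hoxa, 51.8 in Hoxc and 51.6 in Hoxd, against 81.6 per Mb in the genome.

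At the 14 ends of the 7 clusters, 5 Santa Cruz peaks lay within 10 kb. They stood at 4 ends, and 2 of them belonged to Hoxa. The others lay 5.05 kb inside the Hoxc4 end of Hoxc, 6.35 kb outside the Hoxd13 end of Hoxd and 1.87 kb inside the 3′ end of Pcdha. None of these 5 border peaks had the core motif, against 16.1% of the whole Santa Cruz list. No interval was computed for these 5 peaks, which are few, and the difference was not tested. The border peak at Hoxc4 was on a simple repeat. No Novus peak was within 10 kb of an end, the closest being 45.1 kb from Hoxa13. The border peak was at the anterior end in Hoxc and at the posterior end in Hoxd. No like share was computed for other gene ends or for spaced positions, so the border count has no background and was not tested.

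**Figure D4:**
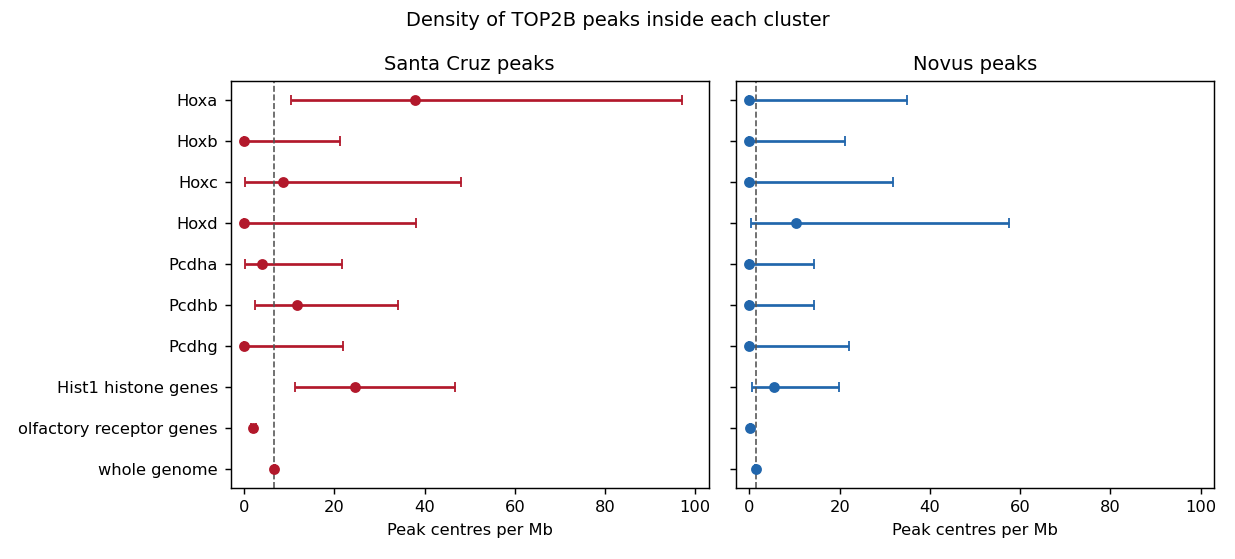
Peak centres per Mb inside each cluster for the Santa Cruz list (left) and the Novus list (right), with exact Poisson 95% intervals, beside the Hist1 histone genes, the olfactory receptor genes and the whole genome (dashed line). Hoxa, the highest of the 7 clusters at 37.9 per Mb, is the one cluster whose Santa Cruz interval lies above the genome's 6.73 per Mb. The intervals assume that peaks are placed independently, and no difference between clusters was tested.

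Per length, there were inside the 7 clusters 7.67 Santa Cruz peaks per Mb (9 peaks in 1.17 Mb, exact Poisson interval 3.51 to 14.6), against 6.73 per Mb in the genome. Hoxa alone had 37.9 per Mb (interval 10.3 to 97.1), Pcdhb 11.7 (2.41 to 34.2), Hoxc 8.64 (0.219 to 48.1) and Pcdha 3.885 (0.0984 to 21.65). The empty clusters allowed up to 21.2 per Mb in Hoxb, 22.02 in Pcdhg and 38.1 in Hoxd. Novus peaks in the 7 clusters came to 0.852 per Mb (1 peak, interval 0.0216 to 4.75), against 1.35 in the genome. Of other gene arrays, the Hist1 histone genes held 24.65 Santa Cruz peaks per Mb (interval 11.3 to 46.8) and the olfactory receptor genes 1.94 (1.44 to 2.56). The interval of the 7 clusters overlapped the first and lay above the second.

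Of windows of 75 bp, the read length, 99.05% to 99.96% in the Hox clusters occurred once in the genome. The share was 87.3% in Pcdha and 92.0% in Pcdhb, against 91.7% at evenly spaced positions. Only exact copies were counted, so near copies that reads with mismatches could match were not assessed. Inside all 18 peaks every such window occurred once. GC content was 48.93% to 50.01% in the Hox clusters and 40.4% to 45.2% in the protocadherin clusters. Around the peak centres, with 250 bp on either side, GC content ran from 41.5% at the outer Hoxd peak to 61.3% at the Evx2 exon, with a median of 50.3% over the 16 Santa Cruz peaks against 47.5% in their list. The ratio of observed to expected CpG ran from 0 at the Hoxc4 repeat to 1.06 at the Evx2 exon, with a median of 0.364 against 0.217.

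**Figure D5:**
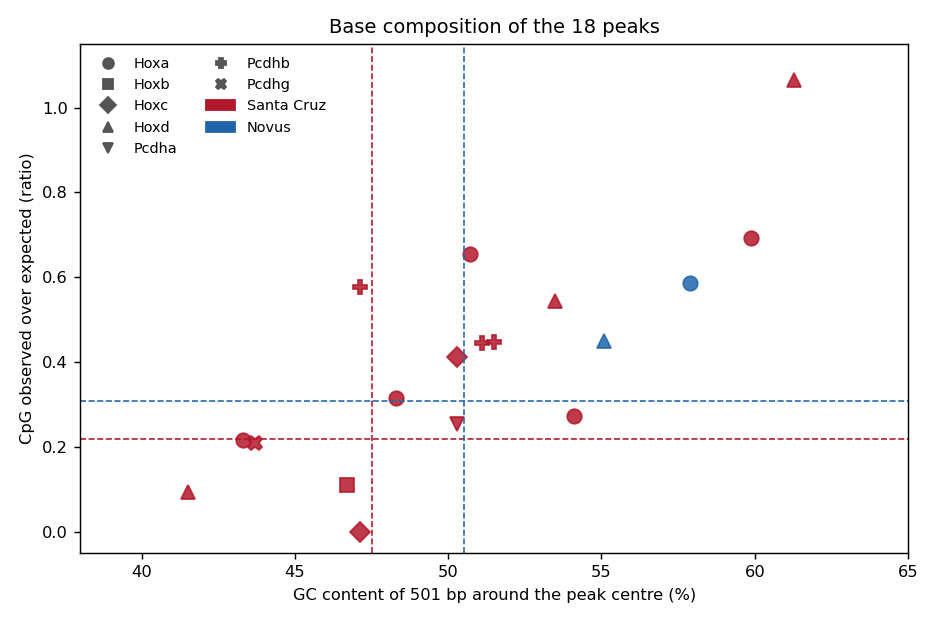
GC content (x axis, percent) and observed over expected CpG (y axis, ratio) of the bases within 250 bp of each of the 18 peak centres. Shapes are clusters, colours are lists, and dashed lines are the medians of the whole lists. The peak in the Evx2 exon stands highest at 61.3% GC and a ratio of 1.06, and the repeat peak in Hoxc4 lowest in CpG at 0.

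Genes related to the members by family or by control were read in the same way, against the 12.1% of all protein-coding genes with a Santa Cruz peak and the 5.11% with a Novus peak within 1 kb of a start. None of the 13 Hox-like genes outside the clusters, Evx1 and Evx2 included, and none of the 12 protocadherins outside them had a peak of either list at a start (intervals up to 24.7% and 26.5%). Of 9 Hox cofactors, Pknox1 alone had a Santa Cruz peak and none had a Novus peak (intervals 0.281% to 48.25% and up to 33.6%). Of 15 Polycomb genes, which encode repressors of Hox genes, 4 had a Santa Cruz peak (Ezh2, Rnf2, Cbx2 and Cbx7) and 3 a Novus peak (Ezh2, Rnf2 and Phc3), with intervals of 7.79% to 55.1% and 4.33% to 48.1%. Of 8 Trithorax genes, which encode their activators, Wdr5 and Ash2l had a Santa Cruz peak and Ash2l a Novus peak (intervals 3.19% to 65.1% and 0.316% to 52.65%). Of 15 genes of CTCF, cohesin and related proteins, 5 had a Santa Cruz peak (Smc3, Stag1, Nipbl, Pds5a and Smchd1) and 3 a Novus peak (Stag2, Pds5a and Pds5b). The intervals were 11.8% to 61.6% and 4.33% to 48.1%. Smchd1 is itself neither CTCF nor a part of cohesin. Each background share lay inside the interval of each list. The median distance to a Santa Cruz peak was 54.7 kb for the Hox-like genes and 241.6 kb for the other protocadherins, against 30.6 kb over all genes. It was 21.95 kb for the Hox cofactors and 6.46 kb for Polycomb. For Trithorax it was 2.99 kb, and for the list of CTCF, cohesin and related genes 12.5 kb. The median distance to a Novus peak over all genes was 167.3 kb. It was shorter for Polycomb (67.9 kb), the Hox-like genes (100.1 kb) and the CTCF and cohesin list (103.6 kb). It was longer for Trithorax (229.5 kb), the Hox cofactors (326.7 kb) and the other protocadherins (999.4 kb). These differences were not tested.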

How the data were processed

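Thymocyte chromatin was profiled by ChIPmentation. The deposited files of the authors hold positions only: a chromosome, a start and an end on mm9 for every peak, called for each library on its own. According to the submitters' processing notes, Bowtie 1.2.0 and HOMER were used, and the methods state that peaks were kept at 10-fold over IgG. All peaks of a list are 187 bp (Santa Cruz) or 195 bp (Novus) wide, and the deposited score is 0 throughout. The Santa Cruz list holds 1 duplicated row, outside the clusters, which was kept.

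Gene models were taken from GENCODE M1 and bases from the same build (Python 3.11.15, numpy 2.4.6, scipy 1.17.1). Chromosomes 1 to 19 and X were used. A start had a peak if the centre lay within 1 kb, and peaks overlapped if they shared 1 bp. Intervals are Clopper-Pearson for shares and exact Poisson for densities. Promoters of other builds were not used. Every peak in the windows, every member with a peak at a start and the genes flanking each cluster were named by rule. Alternatives varied the flanks, the distance to a start, the overlap, the motif and the borders. The members and gene lists were chosen with earlier results of these data known. The scripts were tested on simulated data. The values of 1 member are not reported here.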

Additional observations from a re-analysis of the deposited data

How the results depend on the processing

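Counting only peaks inside the clusters gave 9 Santa Cruz peaks in place of 16 and 1 Novus peak in place of 2, and flanks of 10 kb also gave 1 Novus peak. Within 2.5 kb of a start, 5 member genes had a Santa Cruz peak (Hoxa2, Hoxa7, Hoxa11, Pcdhb16 and Pcdhb17), and within 500 bp 1 had (Hoxa7), in place of 2. The share of all protein-coding genes was taken at 1 kb and 10 kb only, so neither count has a background. Without mismatches to the core motif, 0% of the Santa Cruz peaks in the windows had it, and 0% of the motif matches had a Santa Cruz peak. With borders of 25 kb on either side, 10 Santa Cruz peaks were at a border in place of 5, with no background for either count. The counts of common peaks and of members with a Novus peak at a start were 0 under all alternatives run. After the data had been seen, up to 2 mismatches were also tried: 43.75% of the Santa Cruz peaks and 100% of the 2 Novus peaks in the windows then had the motif, against 47.0% and 60.5% of the lists and 30.1% of evenly spaced positions. Leaving out the repeat peaks, also tried then, gave 14 peaks and 4 border peaks. A stricter peak threshold could not be run, since the lists hold no scores. No paired analysis was possible because the result comes from no test and each antibody has 1 library. Single peaks have no height or depth here, so that their precision is unknown.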

Other observations

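Beyond the windows, within 100 kb of the clusters, the lists held 24 Santa Cruz and 3 Novus peaks in all, the peaks in the windows included. The Novus peak added in this way was the one at the Mtx2 start, 0.318 kb from it. It did not overlap the Santa Cruz peak at the same start, which was 0.567 kb away on the same side.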
